A study of Homo sapiens with 6 samples.

Results

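The genes described here are 47 genes of the lysosome and of autophagy, taken by symbol from the 60669 genes of a table of normalized counts. They cover 7 proteins of the lysosomal membrane, 7 proteases of the cathepsin family, 6 glycosidases, 5 proteins of lysosomal lipid handling, 12 subunits or accessory proteins of the vacuolar proton pump (V-ATPase), 3 transcription factors of the MiT/TFE family and 7 autophagy proteins. The question put to them was whether the strong fall of LAMP1 in cells treated with an siRNA against ADAMTS12 was shared by LAMP2 and by the rest of the lysosome. ADAMTS12 encodes a secreted metalloprotease of the extracellular matrix.

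The cells were LX-2, an established human line of hepatic stellate origin. Stellate cells are the liver cells that deposit scar matrix once activated. All libraries came from wild-type LX-2 cells grown in medium with fetal calf serum and transfected with siRNA by RNAiMAX, so transfection is common to both groups. The 3 siCTL libraries came from cells given a commercial negative control siRNA, whose sequence is not given in the sources used here, and the 3 siADAMTS12 libraries from cells given a single siRNA sequence against ADAMTS12, each for 48 h. The model is therefore 1 cell line, 1 targeting sequence and 1 time point, and the labels do not tie the replicate numbers 1 to 3 to separate cultures. A p-value here thus reflects only how far these libraries spread, which may be technical.

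Lysosomes are acidic organelles in which hydrolases break down material brought by endocytosis and autophagy. The V-ATPase acidifies them, heavily glycosylated proteins such as LAMP1 and LAMP2 line their membrane, and receptors carry new hydrolases to them from the Golgi. TFEB, TFE3 and MITF activate many lysosomal genes together through a short promoter motif, and stellate cells are known to use autophagy while they become activated.

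The normalized counts of a library summed to between 33576945 and 34072515 in siCTL and between 30678468 and 31415206 in siADAMTS12, and the libraries correlated more closely within groups (Pearson r across genes 0.991 to 0.994) than between them (0.985 to 0.988). The target ADAMTS12 itself read 13709, 12235 and 13423 with siCTL and 4083, 3449 and 3687 with siADAMTS12, which left 28.5% of its transcript. Collagen I, vimentin and ACTA2, which mark the activated stellate cells the labels name, were abundant in every library, but LRAT was at 0 in all 6 libraries and DES did not pass 5. The 12 stellate and mesenchymal markers summed to between 392260 and 431398 in siCTL and between 299931 and 319870 in siADAMTS12. Of the 10 tested, 5 fell (PDGFRB, PDGFRA, VIM, TAGLN and THY1), where 15.5% of all genes tested fell. The 7 hepatocyte markers summed to at most 28 in any library, the 8 macrophage markers to 122 to 163, most of it CD14, and the 6 endothelial markers to 139 to 157 in siCTL and 65 to 79 in siADAMTS12, most of it KDR. The 5 biliary and epithelial markers, mostly SOX9, summed to 1874 to 2233 in siCTL and 1733 to 2073 in siADAMTS12. The part of these marker shifts in the results below was not tested. In RNA pooled from many cells, fewer cells with a transcript and less of it per cell cannot be told apart.

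The sequences shown first are those of the siRNA and of the stretches of the transcripts that match the seed of its guide strand, because LAMP1 holds such a match. The guide is the strand loaded into the silencing complex, and its bases 2 to 8, the seed, can also bring down transcripts that match only the seed, as microRNAs do. The sense strand of the siRNA is from the labels, and the guide is its reverse complement with the seed in capitals.
siRNA sense strand: gccaaaguuuggagggaaa
siRNA guide strand: uUUCCCUCcaaacuuuggc
A transcript that pairs with the seed reads GAGGGAA. With an A opposite guide base 1 it reads GAGGGAAA (the 8-mer), and a shorter match to bases 2 to 7 reads AGGGAA, or AGGGAAA with that A. Each of these was searched on the transcript strand in the 3' UTR of the principal GENCODE 29 transcript (GRCh38), so the shorter forms are contained in the longer ones, and each gene was put in the class of its longest match.

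The full seed match was found in 2 of the 44 tested members whose 3' UTR was searched, LAMP1 and TFE3, and no member held the 8-mer. The 19 bases of each that lie opposite the guide are printed with the seed match in capitals, beside those of 4 other lysosomal genes, SUMF1 and MFSD1, which fell most among the wider lists described further on, and SLC36A1 and TMEM199, which rose.
LAMP1 (chr13:113323045-113323063, plus strand): acaacagtagaGAGGGAAc
TFE3 (chrX:49029834-49029852, minus strand): cttgcccaggtGAGGGAAg
SUMF1 (chr3:4361880-4361898, minus strand): gaaggggagtgGAGGGAAc
MFSD1 (chr3:158829358-158829376, plus strand): aaaaaacttttGAGGGAAA
SLC36A1 (chr5:151489231-151489249, plus strand): tgcaccgggccGAGGGAAg
TMEM199 (chr17:28363006-28363024, plus strand): gcctgtctggaGAGGGAAc
The LAMP1 match starts at base 635 of a 3' UTR of 1251 bases, and 12 of its 19 bases pair with the guide. No other stretch of the LAMP1 transcript paired with more bases in an ungapped search, and 5830 tested genes had a best pairing of the same size, against 19 of 19 in ADAMTS12. The TFE3 match starts at base 317 of 1427, with 7 of 19 bases paired. The principal transcript of LAMP2 has a longer 3' UTR of 2660 bases with none of these matches. Its other transcripts were not searched.

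LAMP1, the most studied marker of the lysosomal membrane, fell far more than any other member. Its normalized count in replicates 1, 2 and 3 was 13439, 14973 and 14378 with siCTL and 2165, 2119 and 2402 with siADAMTS12. The groups were far apart, and the highest siADAMTS12 library lay well below the lowest siCTL library. The difference was a log2 fold change of -2.68 ± 0.07 (SE, limma adjusted p = 3.94e-09, n = 3 per group), with a 95% interval of -2.83 to -2.53, which left 15.6% of the transcript. By the size of its fall LAMP1 (ENSG00000185896, chromosome 13, 113297241 to 113323672, plus strand, GRCh38) ranked 5 among the 15637 genes with a mean of at least 10, and 3 among the 12697 with a mean of at least 50. The question was set on LAMP1 because of this fall in the same libraries. Its p-value and rank, and the test of its ratio to LAMP2 below, thus describe a gene already picked and are no independent support.

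LAMP2, which has the same domain plan as LAMP1 and also serves as receptor in chaperone-mediated autophagy, fell by a small step. It stood at 11115, 10881 and 10562 in siCTL and at 9074, 9270 and 8919 in siADAMTS12. Every siADAMTS12 library was below every siCTL library, although the step was small beside that of LAMP1. The log2 fold change was -0.26 ± 0.06 (limma adjusted p = 0.00578), which left 83.7% of the transcript. LAMP2 (ENSG00000005893, chromosome X, 120427827 to 120469365, minus strand) ranked 3063 of 15637 by the size of its fall and 10 of the 46 members tested. Its call depended on the scaling: the change was -0.12 after quantile normalization (adjusted p = 0.115) and -0.13 with the columns rescaled to the same total (adjusted p = 0.0830). Rescaling to the same total raised the median change of all genes from 0.005 to 0.13, so LAMP2 lay as far below the median gene as before. After quantile normalization the median was 0.029, and LAMP2 lay nearer to the median gene than in the main fit.

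The balance of the 2 proteins' transcripts turned over. The log2 ratio of LAMP1 to LAMP2 within a library was 0.27, 0.46 and 0.44 in siCTL and -2.07, -2.13 and -1.89 in siADAMTS12. LAMP1 was thus the higher of the pair in every siCTL library and the lower in every siADAMTS12 library, by normalized counts not divided by length. The means were 0.39 ± 0.10 (SD, n = 3) and -2.03 ± 0.12, a difference of -2.42, and the exact 2-sided permutation test over libraries gave p = 0.1, the smallest value 3 against 3 allows. Per kilobase of transcript, LAMP1 was 1.96 ± 0.138 times LAMP2 in siCTL and 0.367 ± 0.0317 times in siADAMTS12.

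**Figure D1:**
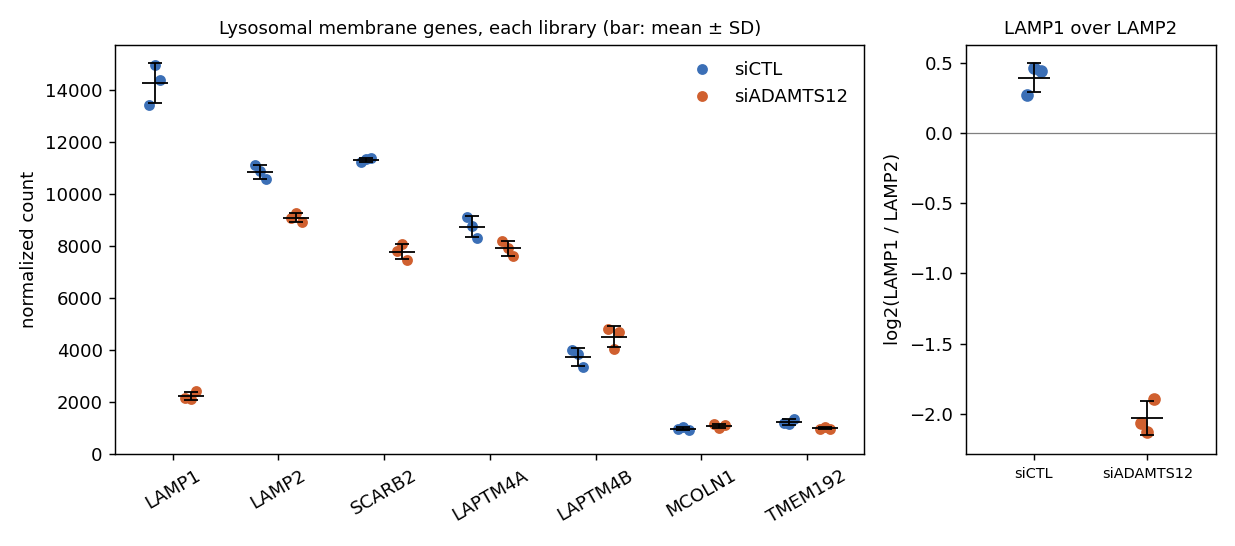
Left, normalized count (vertical axis, linear from 0) of the 7 lysosomal membrane genes in each library, with siCTL in blue and siADAMTS12 in orange; bars show mean ± SD over 3 libraries. Right, log2 ratio of LAMP1 to LAMP2 in each library, which lies between 0.27 and 0.46 in siCTL and between -2.13 and -1.89 in siADAMTS12.

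The other membrane proteins moved in both directions. SCARB2, the LIMP-2 protein that carries glucocerebrosidase to the lysosome, stood at 11233, 11325 and 11380 in siCTL and at 7807, 8065 and 7477 in siADAMTS12. It was lower in every siADAMTS12 library, with a log2 fold change of -0.54 ± 0.06 (limma adjusted p = 3.88e-05). TMEM192, a membrane protein widely used as a tag for lysosome purification, went from 1186, 1154 and 1357 to 944, 1020 and 972, a change of -0.33 ± 0.08 (adjusted p = 0.00898), with no overlap between the groups. That call was lost with columns rescaled to the same total (adjusted p = 0.0537). LAPTM4B, a membrane protein of late endosomes and lysosomes, was higher in siADAMTS12, at 4801, 4036 and 4680 against 4013, 3837 and 3324. Its rise of 0.28 ± 0.09 (adjusted p = 0.0348) was one of the less secure calls. The LAPTM4B call was lost on leaving out replicate 2 (adjusted p = 0.0609) or 3 (0.139) of siCTL, or replicate 1 (0.109) or 3 (0.115) of siADAMTS12. It was also lost with no filter (adjusted p = 0.0668) and without the intensity trend (0.123). LAPTM4A, its close relative, stood at 9120, 8761 and 8317 in siCTL and at 8205, 7903 and 7625 in siADAMTS12. It lay lower in every siADAMTS12 library without passing (-0.14, adjusted p = 0.107), and it passed as a fall when the replicate number was a block in the fit (adjusted p = 0.0332). The calcium channel MCOLN1 stood at 944, 1026 and 915 in siCTL and at 1147, 1005 and 1104 in siADAMTS12. Those groups overlapped, and its change of 0.17 did not pass (adjusted p = 0.121).

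Over the whole set, the lysosome did not follow LAMP1. Of the 46 members tested, 11 fell and 5 rose at a limma adjusted p under 0.05, where 15.5% of all genes tested fell and 11.5% rose, so 23.9% and 10.9% of the members were called. The members are protein-coding, and among the 12606 tested protein-coding genes with a searched 3' UTR the shares were 18.3% and 12.7%. The groups did not overlap in 23 members, 16 lower and 7 higher in siADAMTS12, against 21.7% and 19.2% of all genes. The median log2 fold change was -0.06, beside 0.005 over all genes tested. LAMP1 was the only member to fall at least 2-fold, LAMP1 and CTSC were the only members to fall at least 1.5-fold, and none rose by 1.5-fold. The remaining member, ATP6V0C, was below the minimum mean of 10 and was not tested. The split between falls and rises moved with the scaling: 9 members fell and 7 rose after quantile normalization, and 8 fell and 10 rose with columns rescaled to the same total. Over all genes, falls made up 57.4% of the calls, 48.9% after quantile normalization and 28.6% with columns rescaled.

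**Figure D2:**
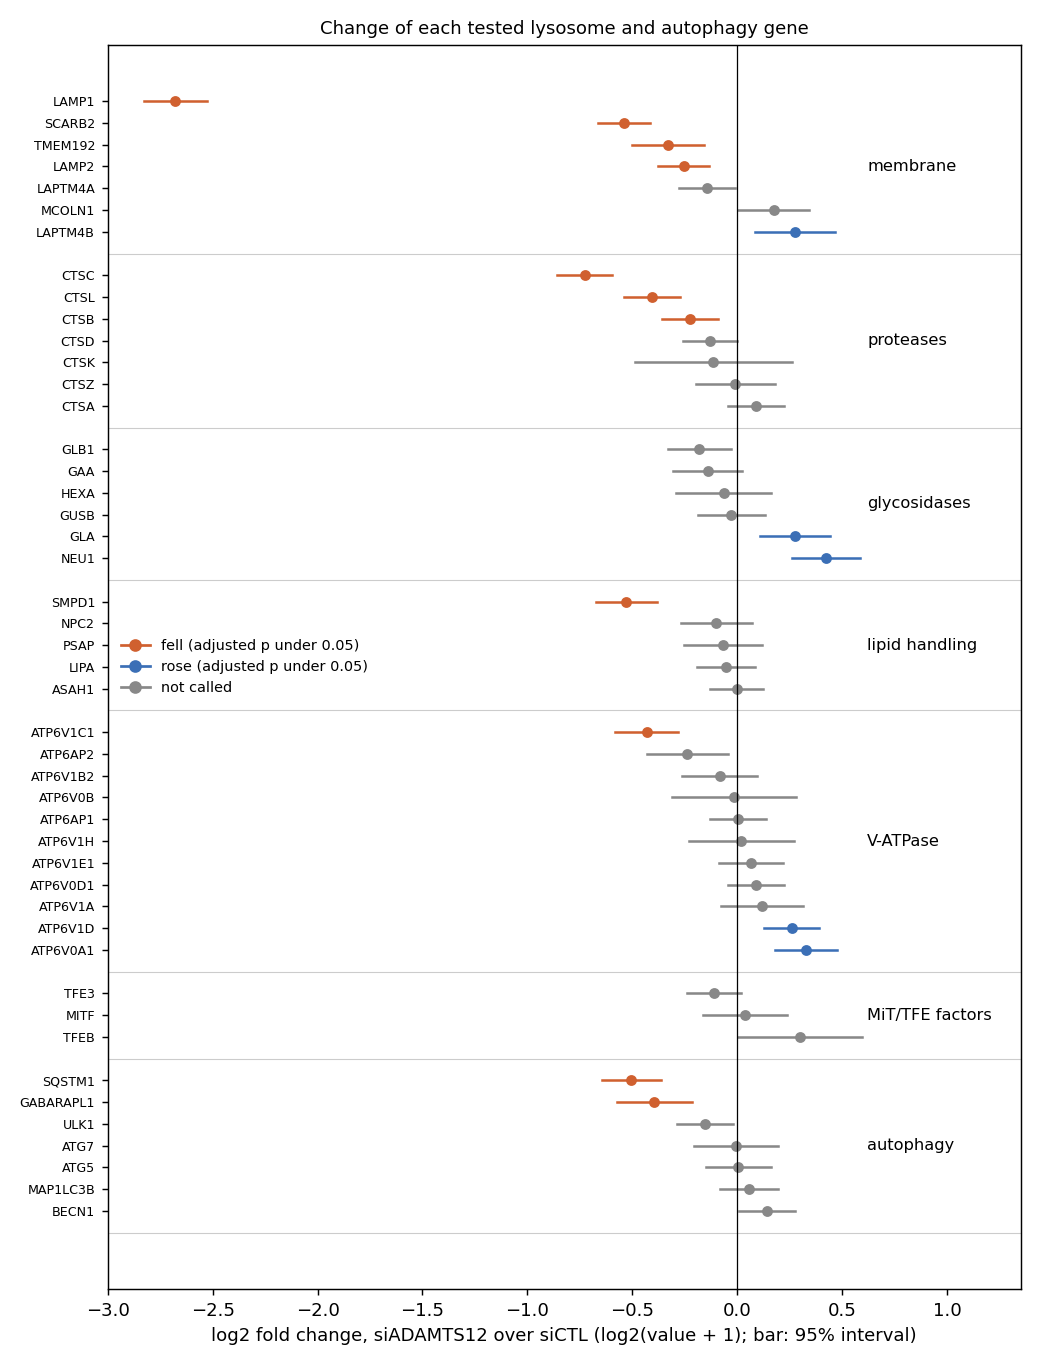
Log2 fold change, siADAMTS12 over siCTL, of each of the 46 members tested, grouped by role, with 95% intervals; orange marks the 11 that fell, blue the 5 that rose and grey the 30 not called at a limma adjusted p under 0.05. LAMP1 at -2.68 lies apart from the other members, which run from -0.73 (CTSC) to 0.42 (NEU1).

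Among the cathepsins, the lysosomal proteases, 3 of 7 fell and none rose, beside 15.5% and 11.5% of all genes tested. CTSC, the dipeptidyl peptidase that activates granule serine proteases, showed the next deepest fall after LAMP1. Its normalized count was 6732, 7409 and 6933 in siCTL and 4141, 4398 and 4180 in siADAMTS12, with every treated library lower, a log2 fold change of -0.73 ± 0.06 (adjusted p = 6.50e-06). The cysteine protease CTSL went from 9428, 8922 and 9678 to 7391, 6786 and 6962. This was again a clean separation, with a change of -0.41 ± 0.06 (adjusted p = 0.000507). CTSB, another cysteine protease, stood at 6965, 6640 and 7341 in siCTL and at 6188, 5939 and 5778 in siADAMTS12, a change of -0.23 ± 0.06 (adjusted p = 0.0176). The groups did not overlap, but the CTSB call was lost after quantile normalization (adjusted p = 0.217), with columns rescaled to the same total (0.203), without the intensity trend (0.0632), and without siCTL replicate 3 (0.0768) or siADAMTS12 replicate 3 (0.0740). The aspartic protease CTSD was at -0.13 (adjusted p = 0.128), and 41.7% of its annotated exon bases are shared on the same strand with another gene model, which makes its value uncertain. The carboxypeptidases CTSA and CTSZ were at 0.09 and -0.01, and the collagen-degrading CTSK, the least abundant of the 7 with 188 to 301 normalized counts, was at -0.11. None of these 3 passed.

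The glycosidases, which trim sugars from glycoproteins and glycolipids, showed no fall and 2 rises among 6, beside 15.5% and 11.5% of all genes. The sialidase NEU1 had the largest rise of any member. It stood at 1804, 1620 and 1618 in siCTL and at 2401, 2278 and 2084 in siADAMTS12, and every treated library was higher. The change was 0.42 ± 0.07 (limma adjusted p = 0.00139). GLA, the galactosidase that is deficient in Fabry disease, rose from 1687, 1569 and 1473 to 2073, 1832 and 1815, by 0.27 ± 0.08 (adjusted p = 0.0202). Its groups did not overlap, yet the call was lost on leaving out replicate 2 (adjusted p = 0.0553) or 3 (0.0840) of siCTL or replicate 1 of siADAMTS12 (0.0816), and without the intensity trend (0.0740). The galactosidase GLB1, whose activity is read in the senescence stain, stood at 3338, 3244 and 3018 in siCTL and at 2899, 2955 and 2619 in siADAMTS12. Its value of -0.18 missed the threshold (adjusted p = 0.0706) and passed as a fall with the replicate block (0.0173). The glucosidase GAA was at -0.14, the hexosaminidase subunit HEXA at -0.06 and the glucuronidase GUSB at -0.03. NEU1 and CTSA form a complex in the lysosome. CTSA did not pass beside NEU1, except as a rise after quantile normalization (0.25, adjusted p = 0.00935) and with columns rescaled to the same total (0.21, adjusted p = 0.0143).

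In lipid handling, only SMPD1 was called. SMPD1, the acid sphingomyelinase that releases ceramide, fell from 1942, 2004 and 1831 to 1388, 1344 and 1272. All siADAMTS12 libraries lay below all siCTL libraries, with a change of -0.53 ± 0.07 (adjusted p = 0.000136). PSAP, the precursor of the saposins that help hydrolases reach their lipids, was the most abundant member, with 35739, 32402 and 30038 in siCTL and 33678, 31166 and 28789 in siADAMTS12. The groups overlapped and its value of -0.07 did not pass (adjusted p = 0.602). The acid lipase LIPA, the cholesterol carrier NPC2 and the ceramidase ASAH1 were at -0.05, -0.10 and -0.002.

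Among the 11 V-ATPase members tested, 1 fell and 2 rose, beside 15.5% and 11.5% of all genes tested. ATP6V1C1, a subunit of the regulatory stalk of the catalytic V1 sector, fell from 4654, 4216 and 4067 to 3389, 3073 and 3127, by a log2 fold change of -0.43 ± 0.07 (adjusted p = 0.000779). ATP6V0A1, a membrane sector subunit that translocates protons, rose from 2011, 1842 and 2068 to 2559, 2531 and 2339, by 0.33 ± 0.07 (adjusted p = 0.00416). ATP6V1D, of the central stalk, rose from 4621, 4296 and 4762 to 5433, 5587 and 5342, by 0.26 ± 0.06 (adjusted p = 0.00797). In each of these 3 genes the groups did not overlap, so subunits of one pump moved in opposite directions. The accessory protein ATP6AP2, also known as the prorenin receptor, stood at 5451, 4553 and 4921 in siCTL and at 4684, 3763 and 4233 in siADAMTS12. The groups overlapped, but within each replicate number the siADAMTS12 library was the lower. Its change of -0.24 ± 0.09 did not pass without the block (adjusted p = 0.0687) and passed with it (0.00368), as it did without siCTL replicate 2 (0.0498) or without siADAMTS12 replicate 1 (0.0243). The other 7 ran from -0.08 (ATP6V1B2) to 0.12 (ATP6V1A). ATP6V0C, the proton-carrying ring subunit, was recorded at only 1, 8 and 9 in siCTL and at 14, 5 and 14 in siADAMTS12, and 72.1% of its annotated exon bases are shared on the same strand with 2 other gene models, so this value is uncertain as a level of the gene.

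None of the 3 MiT/TFE factors was called. TFE3 stood at 4501, 4922 and 4758 in siCTL and at 4266, 4400 and 4475 in siADAMTS12, a value of -0.11 (adjusted p = 0.196), with every treated library just below the controls. TFEB was at 112, 104 and 97 in siCTL and at 134, 118 and 134 in siADAMTS12, a value of 0.30 ± 0.14 (adjusted p = 0.125), with every treated library above the controls; it passed only with columns rescaled to the same total (0.42, adjusted p = 0.0349). MITF was at 0.04. Per kilobase of transcript in siCTL, TFE3 was the dominant member at 1384 ± 62.1 normalized counts, 10.3 times MITF (134 ± 8.12) and 31.2 times TFEB (44.3 ± 3.19).

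Of the 7 autophagy genes, 2 fell and none rose, beside 15.5% and 11.5% of all genes tested. SQSTM1, the p62 receptor that brings ubiquitinated cargo to autophagosomes, went from 15911, 14906 and 15713 to 11526, 10256 and 11056. Every siADAMTS12 library was lower, and the change was -0.50 ± 0.06 (adjusted p = 0.000164). Its exons overlap genes on the opposite strand over 22.04% of their bases, and the strand setting of the counting is not given in the sources used here. GABARAPL1, one of the ubiquitin-like proteins attached to autophagosome membranes, went from 1110, 1262 and 1227 to 959, 946 and 831. It too was lower in every treated library, by -0.40 ± 0.08 (adjusted p = 0.00401). MAP1LC3B, the LC3 protein used as a standard autophagy marker, read 4050, 3755 and 3978 in siCTL and 4136, 3848 and 4278 in siADAMTS12. The LC3 groups overlapped, with a value of 0.06 and a 95% interval of -0.08 to 0.19. The kinase ULK1, which starts autophagy, was at -0.15 (adjusted p = 0.0829) and passed as a fall with the replicate block (0.0365). BECN1, of the lipid kinase complex, was at 0.14 (adjusted p = 0.108) and passed as a rise after quantile normalization (0.0176) and with columns rescaled to the same total (0.00501). The conjugation enzymes ATG5 and ATG7 were at 0.004 and -0.006.

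Summed over genes, the classes kept different shares of their control level. The 47 members together stood at 87.3% of the siCTL sum, and the 46 without LAMP1 at 91.8%. The membrane class was at 65.7%, and at 85.2% without LAMP1. Autophagy stood at 84.1%, proteases at 89.0%, lipid handling at 94.8%, the V-ATPase at 99.3% and glycosidases at 101.8%. The siADAMTS12 columns also had the smaller totals. As a share of the library total, the members other than LAMP1 took 0.674% ± 0.022 in siCTL and 0.675% ± 0.023 (SD, n = 3) in siADAMTS12, which differ by less than the spread between libraries. Taking shares rescales the columns to the same total, which moves the median log2 fold change of all genes from 0.005 to 0.13. Equal shares therefore do not show that these members kept their level. These sums weigh a gene by its abundance and length, and in siCTL their largest terms were PSAP, SQSTM1, CTSA and LAMP1.

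**Figure D3:**
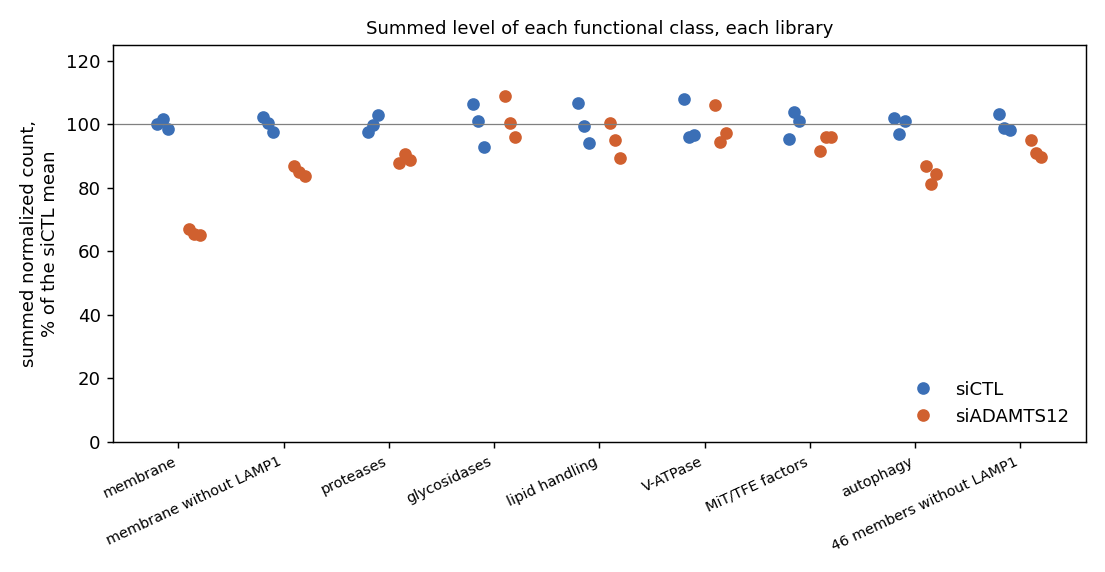
Summed normalized count of each class in each library, as a percentage of the siCTL mean (vertical axis from 0), siCTL in blue and siADAMTS12 in orange. The membrane class drops to 65.7% with LAMP1 and 85.2% without it, while the V-ATPase and glycosidases lie around 100% with overlapping groups.

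Changes of the members were then set beside the siRNA seed matches. Among the 12606 tested genes with a searched 3' UTR, 18.3% fell and 12.7% rose, and 15.6% held GAGGGAA with or without the following A. Of the genes with the 8-mer 47.5% fell, with a median log2 fold change of -0.24, and of those with GAGGGAA alone 28.4% fell, with a median of -0.09. With AGGGAAA but no full seed match 382 of 1415 genes fell, with the bare 6-mer 324 of 1828 (17.7%), and with no match 890 of 7393. The 2 members with GAGGGAA were LAMP1 at -2.68 and TFE3 at -0.11. The 8 members with AGGGAAA included 3 that fell (SCARB2, TMEM192 and GABARAPL1) and 1 that rose (NEU1). The 7 with the bare 6-mer included 1 that fell (ATP6V1C1). The 27 with no match included 6 that fell (LAMP2, CTSB, CTSC, CTSL, SMPD1 and SQSTM1) and 2 that rose (ATP6V0A1 and ATP6V1D). LAPTM4B and GLA, which rose, were not searched. The part of these matches in the fall of LAMP1 or of any other gene was not tested, since no other siRNA against ADAMTS12 was sequenced among these libraries.

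**Figure D4:**
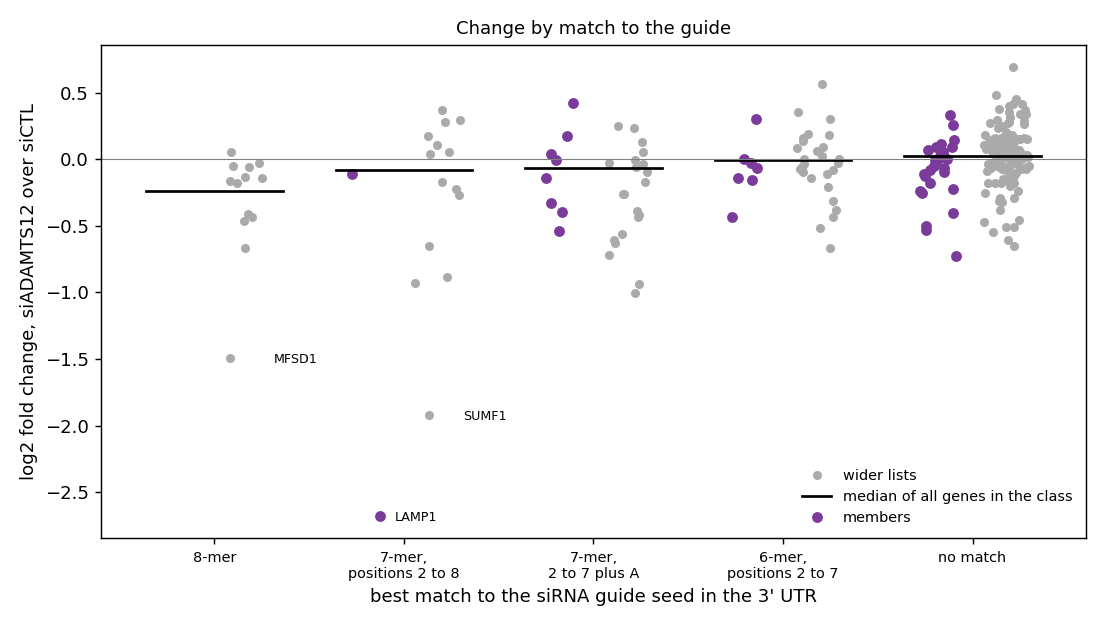
Log2 fold change, siADAMTS12 over siCTL, of members (purple) and of genes of the wider lysosome lists (grey), by the longest match to the siRNA guide seed in the 3' UTR; horizontal position within a class only separates points, and black bars are medians over all tested genes of the class. The bars go from -0.24 with the 8-mer to 0.02 with no match, and LAMP1, SUMF1 and MFSD1 lie far below the bars of their classes.

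Promoters bear on the members because the MiT/TFE factors bind lysosomal promoters at the motif CACGTG, in its extended form TCACGTGA. Both read the same on either strand, and the extended form contains the short one. In RefSeq promoters (GRCh38.p14, 250 bases before to 50 after the start site), 36 of the 47 members were matched by symbol. LAMP2, LAPTM4B, CTSB, CTSK, HEXA, PSAP, ASAH1, ATP6V1A, ATP6V1B2, ATP6V1C1 and ATP6V1H had no match, so their promoters were not searched. Whether they hold the motif is therefore not known here. Where a symbol had several promoters, only the first listed was searched. CACGTG was in 8 of the 36 (22.2%), against 7.43% of the 27305 promoters searched and 10.0% of those of genes tested. TCACGTGA was in 5 (13.9%), against 1.04% and 1.85%. The LAMP1 promoter held 6 copies of CACGTG, more than any other promoter searched, and 2 of them lay within TCACGTGA. MCOLN1 held 2, both extended. These stretches run to 20 bases past the start site, with CACGTG in capitals.
LAMP1 promoter (chr13:113296989-113297258, plus strand): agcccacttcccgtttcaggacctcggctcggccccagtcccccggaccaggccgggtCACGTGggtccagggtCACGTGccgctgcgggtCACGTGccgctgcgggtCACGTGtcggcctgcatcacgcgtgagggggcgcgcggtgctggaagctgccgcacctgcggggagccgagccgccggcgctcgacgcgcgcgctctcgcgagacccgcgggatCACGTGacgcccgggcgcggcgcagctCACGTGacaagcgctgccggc
MCOLN1 promoter (chr19:7522544-7522643, plus strand): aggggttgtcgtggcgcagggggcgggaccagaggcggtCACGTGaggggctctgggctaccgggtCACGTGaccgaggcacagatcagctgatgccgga
Of the 8 members with CACGTG, LAMP1 fell and 7 did not, where 15.5% of all genes tested fell and 11.5% rose. With 8 genes, that count is not read as a result about the motif. CTSA was at 0.09, CTSD at -0.13, GAA at -0.14, ATP6V0B at -0.01, ATP6V0D1 at 0.09 and MCOLN1 at 0.17, none of them called, and NEU1 rose by 0.42. With columns rescaled to the same total, CTSA, MCOLN1 (adjusted p = 0.0164) and ATP6V0D1 (0.0209) passed as rises too. A match of these letters describes the sequence and does not show binding.

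Outside the members, a further 207 genes of the same organelle and pathways were listed, of which 195 were tested. Of these, 38 fell (19.5%) and 24 rose (12.3%), beside 15.5% and 11.5% of all genes tested, with a median log2 fold change of -0.005. With columns rescaled to the same total, 29 fell and 54 rose. Within the 6 lists described next, between 8.33% and 24.5% of genes fell and between 8% and 16.7% rose, so the counts are to be read against the shares over all genes. Only 3 of them fell at least 2-fold. SUMF1, which activates all sulfatases by modifying their catalytic cysteine, went from 1018, 1007 and 943 to 274, 248 and 260 (-1.92 ± 0.08, limma adjusted p = 5.16e-08). MFSD1, a transporter of the lysosomal membrane, went from 2523, 2166 and 2247 to 903, 796 and 770 (-1.49 ± 0.08). SLC37A3, a lysosomal transporter, went from 1116, 994 and 1041 to 571, 460 and 543 (-1.004 ± 0.093). The groups were far apart in all 3, and SUMF1 and MFSD1 carry the seed matches printed above, while SLC37A3 carries AGGGAAA.

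Of 36 membrane and transport genes, 7 fell and 6 rose. HGSNAT, which acetylates heparan sulfate ends, fell (-0.61), while the cystine exporter CTNS rose (0.40) together with the proton-coupled amino acid transporter SLC36A1 and the tethering adaptor PLEKHM1 (both 0.37) and the phosphoinositide phosphatase PIP4P1 (0.27). Of 43 hydrolases and their cofactors, 10 fell and 4 rose. Beside SUMF1, the mannosidase MANBA (-0.89), the palmitoyl-protein thioesterase PPT1 (-0.41) and the sulfatase GALNS (-0.38) fell. The galactosylceramidase GALC (0.42), the iduronidase IDUA (0.48), the mannosidase MAN2B2 (0.25) and the cathepsin CTSV (0.28) rose.

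Of 18 further V-ATPase genes, 3 fell and 3 rose. ATP6V0E1, a small subunit of the membrane sector, had the deepest fall of the pump, from 5866, 5914 and 5984 to 3190, 3098 and 3057 (-0.93 ± 0.05, adjusted p = 4.58e-07), and its 3' UTR holds the seed match GAGGGAA. NCOA7, a protein that binds the pump, and the subunit ATP6V1E2 also fell (-0.67 and -0.65). Of the rises, CCDC115 (0.56) and TMEM199 (0.30) are assembly factors of the pump that work as partners, and DMXL2 (0.30) belongs to the complex that joins its sectors.

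Delivery of hydrolases was represented by 25 genes, of which 4 fell and 2 rose. M6PR, the cation-dependent mannose 6-phosphate receptor that brings hydrolases from the Golgi, went from 7970, 8280 and 8634 to 4282, 4537 and 4155. Its level in siADAMTS12 was 52.1% of control (-0.94 ± 0.06, adjusted p = 9.52e-07), and its exons overlap a gene on the opposite strand over 29.3% of their bases. Of the other wider genes named in the text, WIPI1 (28.1%), TMEM199 (24.3%), PPT1 (23.4%) and AP3M1 (18.8%) have such overlaps too, and others have smaller ones. The alternative hydrolase receptor SORT1 (-0.44) and the clathrin adaptor subunits AP1S1 (-0.65) and AP3M1 (-0.63) fell as well. IGF2R, the other mannose 6-phosphate receptor in the list, was not called, although its 3' UTR holds the 8-mer. The retromer subunit VPS29 (0.28) and the adaptor subunit AP1M1 (0.30) rose.

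Among 24 genes of mTORC1 signalling and MiT/TFE control, 2 fell and 4 rose. RHEB, the small GTPase that activates mTORC1 on the lysosome, fell (-0.61), and so did the nuclear exporter XPO1 (-0.45), which carries TFEB out of the nucleus. The Rag GTPases RRAGB (0.62) and RRAGD (0.25), the folliculin partner FNIP2 (0.45) and the mTORC1 scaffold RPTOR (0.35) rose. Rag GTPases dock mTORC1 at the lysosome, and the other genes of the list, RRAGA and RRAGC among them, were not called.

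Of 49 further autophagy genes, 12 fell and 5 rose. The cargo receptor NBR1, which acts with SQSTM1, fell (-0.72), as did the phosphoinositide-binding proteins WDR45B (-0.67) and WIPI1 (-0.47) and the fusion protein STX17 (-0.51). Against these, VPS18, of the tethering complexes for lysosome fusion, went from 2343, 2237 and 2209 to 3692, 3707 and 3562 (0.69 ± 0.06, adjusted p = 6.49e-06), and its complex partner VPS33A rose with it (0.41). The lipid transfer protein ATG2A (0.32) and the kinase ULK2 (0.34) rose too, whereas the member ULK1 did not.

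The full seed match or the 8-mer was found in 27 of the wider genes, of which 10 fell and 3 rose, against 28 that fell and 20 that rose among the 166 searched without it. Over all tested genes with such a match, 35.9% fell and 8.88% rose. Of the 10 with the match that fell, those named above are MFSD1, SUMF1, MANBA, PPT1, ATP6V0E1, AP1S1 and WDR45B. The 3 wider genes with the match that rose were SLC36A1, CTSV and TMEM199. AGGGAAA without the full seed match was held by 21 of the wider genes, of which 9 fell and 2 rose. Among those named above, SLC37A3, HGSNAT, M6PR, SORT1, AP3M1 and NBR1 fell and MAN2B2 rose.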

How the data were processed

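RNA-seq libraries of LX-2 cells (3 siCTL, 3 siADAMTS12, stranded poly(A) kit, 500 ng RNA) were analysed from the table the authors deposited. The deposited values are a score: counts that the authors had normalized between libraries, written as whole numbers, per the file's name. STAR, HTSeq, DESeq2 and GRCh38 are named in the submitters' processing notes without versions, but for the annotation and the strand setting nothing is given in the sources used here. Count models were left out for this reason. Genes with a mean of at least 10 (15637 of 60669) were analysed as log2(value + 1) with limma 3.58.1 in R 4.3.3 (group only, intensity trend), with 2-sided p-values adjusted by Benjamini-Hochberg over all genes tested and a threshold of 0.05. Fold changes are on that scale, which understates low genes, and the depth in reads is unknown. On simulated data (5 draws, 15637 genes, 200 changed) the fit recovered 87.5% of genes given a log2 change of 0.5 and 100% at 1 and at 2, with 4.74% false calls. The simulation changed only genes with a mean of at least 50, gave every gene the same dispersion, and changed far fewer genes than were called here. These rates hold for that setting and not for genes that spread more, such as ATP6V0B and CTSK.

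Libraries of the same number shared deviations from the mean of their group (correlations across genes 0.37, 0.13 and 0.13, against -0.19 to 0.06 for different numbers), so a second fit took the replicate number as a block. Other alternatives were pseudocounts of 8 and 0.5, a minimum mean of 50, no filter, quantile normalization, columns rescaled to the same total, no intensity trend and leaving out each library. The members, wider lists and markers were chosen with earlier results of these data known. Named are all members, ADAMTS12 and, from each wider list, up to 4 falls and 4 rises with the smallest adjusted p. IGF2R, RRAGA and RRAGC, which were not called, are named outside this rule. 1 gene that this rule takes is left out of the text. Gene positions, transcripts and lengths are from GENCODE 29, matched by identifier, and promoters from RefSeq. A 3' UTR of at least 30 bases was required. Python 3.11.15, numpy 2.4.6, pandas 2.3.3, scipy 1.17.1 and matplotlib 3.10.9 were used.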

Additional observations from a re-analysis of the deposited data

How the results depend on the processing

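LAMP1 stayed called in all 14 alternatives, between -2.73 and -2.55, and the LAMP1 to LAMP2 difference ran from -2.49 to -2.37; the filter and the trend do not enter that ratio. LAMP2 was lost after quantile normalization (-0.12) and with columns rescaled to the same total (-0.13). Rescaling to the same total, which shifts the median gene from 0.005 to 0.13, gave 1546 falls and 3868 rises over all genes, 10 rises among members and 54 among the wider genes. Rises among members were 3 without the intensity trend and 3 to 5 when single libraries were left out, 3 each on leaving out replicate 2 or 3 of siCTL or replicate 1 of siADAMTS12. Falls among members ran from 8 to 15, the highest with the replicate block, which added LAPTM4A, GLB1, ATP6AP2 and ULK1 and changed no other member's call. Of 644 member values under alternatives, 565 kept direction and side of the threshold, 18 lost and 13 gained the call, and 48 changed sign, all in members not called as changed; the cause was not tested. Under quantile normalization these were LAPTM4A (0.029), CTSZ (0.15), GUSB (0.038), LIPA (0.0401), PSAP (0.19), ASAH1 (0.11), ATP6V0B (0.052), ATP6V1B2 (0.079) and ATG7 (0.0101). With columns rescaled they were CTSK (0.0104), CTSZ (0.12), GUSB (0.097), HEXA (0.059), LIPA (0.072), PSAP (0.057), ASAH1 (0.12), NPC2 (0.025), ATP6V0B (0.11), ATP6V1B2 (0.041), TFE3 (0.015) and ATG7 (0.12). With single libraries left out, the ranges that crossed 0 were -0.28 to 0.059 for CTSK, -0.098 to 0.065 for CTSZ, -0.076 to 0.028 for GUSB, -0.16 to 0.031 for HEXA, -0.035 to 0.024 for ASAH1, -0.034 to 0.033 for ATP6AP1, -0.16 to 0.13 for ATP6V0B, -0.0031 to 0.10 for ATP6V1E1, -0.088 to 0.12 for ATP6V1H, -0.042 to 0.091 for MITF, -0.052 to 0.055 for ATG5 and -0.091 to 0.075 for ATG7. With 3 libraries a group, a member not called may still have changed by an amount within its 95% interval.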
